A study of Mus musculus with 4 samples.

Results

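Histone lysines and arginines are methylated by writer enzymes, most of them built around a SET domain or, for arginine, a PRMT fold, and the methyl groups are taken off by erasers, the KDM enzymes. Of 18193 genes that had a probe set of their own on the arrays, 57 were found by their symbol, and 55 of these belong to the families of writers (38 genes) or erasers (17 genes). The 38 genes include 5 with a SET domain (*Kmt2e*, *Setd3*, *Setd4*, *Setd5* and *Setd6*) that were placed with the writers by family and symbol, not by a known histone substrate. The other 2, *Nsdhl* and *Ezhip*, share only the first letters of their symbols with the families and were kept out of every count. Each gene was read by its brightest probe set over the 4 arrays, and the 57 genes had 156 probe sets in all.

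The arrays held TFH cells sorted from mouse spleen at day 8 of LCMV Armstrong infection, 2 samples from Rictor-null mice and 2 from WT mice. In the Rictor-null mice a *Cd4*-Cre transgene deletes floxed *Rictor*, the gene of the subunit that defines mTORC2. The WT mice are littermates with the same floxed alleles and no Cre, and both groups were infected as young adults. The methods say of the study as a whole that mice of both sexes were used. *Cd4*-Cre is active from the thymus on, so that CD8 T cells of these mice lack *Rictor* too. Each sample was a pool, of at least 5 mice according to the series description, while the legend in the study gives other numbers per group. The p-values therefore measure the spread between 2 pools of a group.

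H3K4 methylation marks promoters and enhancers that are or can be active, and it is written by the KMT2 (MLL) and SETD1 enzymes of the COMPASS complexes. H3K27 methylation, written by Polycomb complex PRC2, and H3K9 methylation mark silenced genes, and H3K36 methylation lies over transcribed gene bodies. In CD4 T cells these enzymes are known to help fix lineage choice, with EZH2 of PRC2 restraining cytokine genes of other lineages and the H3K27 eraser UTX supporting TFH cells in LCMV infection.

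Values are probe set intensities on a linear scale, and fold changes are log2(intensity + 16) of Rictor-null minus WT, fitted with limma across all genes with Benjamini-Hochberg adjustment and a threshold of 0.05. The array medians were close to each other, with 20.4 the highest, and the groups' replicates correlated at 0.998 each. The brightest of 5 *Rictor* probe sets gave 267 and 279 in Rictor-null and 334 and 303 in WT TFH cells, a log2 fold change of -0.21. The sources used here do not say which exons it covers, so that it does not check the deletion. Apart from the arrays, the study describes *Rictor* mRNA as below detection in sorted Rictor-null TFH cells. It also describes mTORC2 signaling as lost in CD4 T cells of these mice. All 7 TFH genes lay above the median of all probe sets, and 6 of them were lower in Rictor-null TFH cells, among them *Bcl6* (-0.94), *Cxcr5* (-0.70), *Cd4* (-0.26) and *Cd3e* (-0.32). *Icos* was at 4219 and 4477 in Rictor-null and 4423 and 4251 in WT TFH cells. The summed intensity of the 7 genes was 7253 to 7679 in Rictor-null TFH cells, against 8728 to 9136 in WT TFH cells. Of 11 measured cycling genes 8 were higher and none lower, and their summed intensity was 8635 to 8658 in Rictor-null against 6804 to 6889 in WT TFH cells. Of 8 myeloid genes 4 were higher, with sums of 328 to 380 against 196 to 201. *Fcgr3* was at 108 and 81.4 in Rictor-null TFH cells, against 30.4 and 29.5 in WT TFH cells (log2 fold change 1.26), and *Lyz2* and *Itgam* were higher by 0.77 and 0.64, while *Cd14* lay at 9.79 to 11.4 on the 4 arrays. Of 7 B cell genes 2 were higher, *Cd79b* by 0.40 and *Pax5* by 0.22, with sums of 89.7 to 95.9 against 74.2 to 77.2. Only *Cd79b* lay above the median of all probe sets, and *Pax5*, *Ms4a1*, *Cd79a* and *Ebf1* were among those below it. Of 4 CD8 and NK genes 1 was higher (*Cd8b1*), with sums of 163 to 179 against 124 to 131, and of 2 erythroid genes 1 was higher, with both below the median. The part of these cells, of the TFH genes and of the cycling genes in the results on the writers and erasers was not tested. In sorted pools, fewer cells of a kind and less RNA per cell cannot be told apart.

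Most writers and erasers that changed were lower in Rictor-null TFH cells, and the H3K4 writers made up the largest block of them. Of the 55 genes, 16 were lower and 1 was higher at an adjusted p under 0.05 from limma, where 19.7% of all genes were called, 7.19% lower and 12.5% higher. Among genes above the median of all probe sets, where 52 of the 55 lay, the background was 11.3% lower and 20.1% higher. Of the 38 writers 11 were lower and 1 higher, or 8 and 1 of 33 without the 5 SET domain genes, and of the 17 erasers 5 were lower and none higher. The median log2 fold change was -0.14 over the writers, -0.07 over the erasers and 0.0068 over all genes. Both Rictor-null arrays lay below both WT arrays for 31 of the 55 genes, against 24.9% of all genes, and above them for 8, against 30.6% of all genes. With either WT array left out the count of lower genes was 8, where 2.51% of all genes were lower without WT replicate 1 and 2.72% without WT replicate 2. The 7 genes called without either of them were *Kmt2a*, *Kmt2d*, *Kmt2e*, *Setd1b*, *Setd7*, *Kdm2b* and *Kdm6b*.

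**Figure D1:**
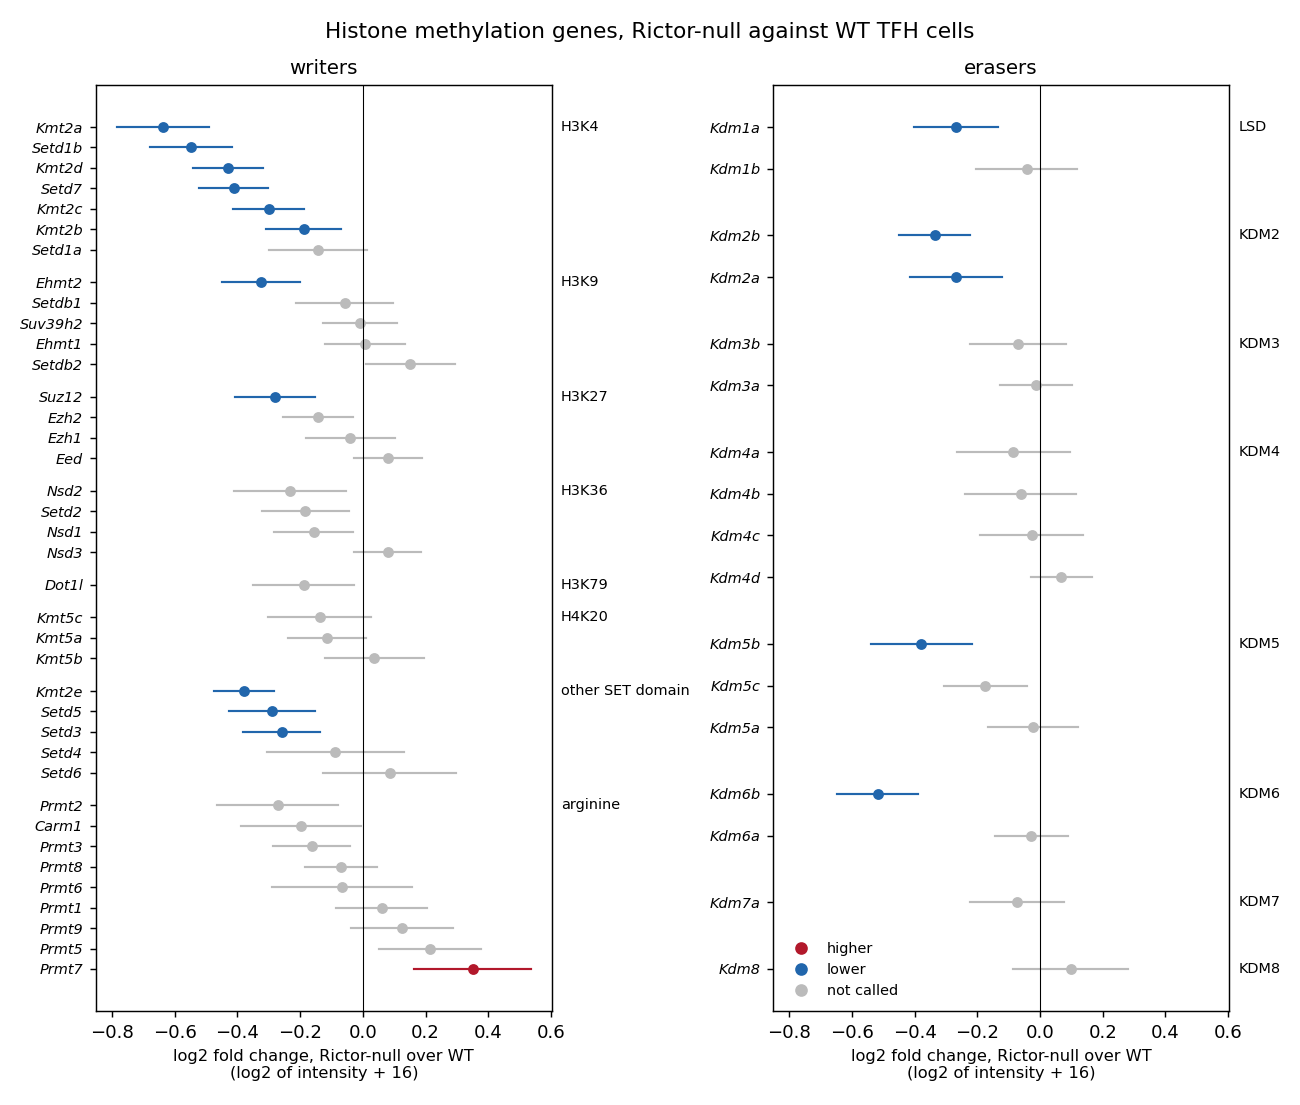
Log2 fold change (x axis, log2 of intensity + 16) of the 38 writers (left) and 17 erasers (right) in Rictor-null over WT TFH cells, grouped by substrate or family. Points are limma estimates from 2 arrays a group with 95% confidence intervals, blue and red where the gene was called lower or higher and grey otherwise. The 6 called H3K4 writers head the left panel, and *Prmt7* is the only red point.

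Promoters of *Kmt2a*, *Setd7* and *Suz12*, picked among the genes called lower, are shown so that the windows searched for motifs can be read. They run from 250 bases before to 50 bases after the start of the gene, in RefSeq sequence of GRCm38.p6, and 43 of the 55 genes had such a window. *Kmt2a* (chr9:44881240-44881539, minus strand) and *Setd7* (chr3:51560774-51561073, minus strand) are H3K4 writers, and *Suz12* (chr11:79992856-79993155, plus strand) is the PRC2 subunit that was called lower. Capitals mark a match to a motif.
Kmt2a: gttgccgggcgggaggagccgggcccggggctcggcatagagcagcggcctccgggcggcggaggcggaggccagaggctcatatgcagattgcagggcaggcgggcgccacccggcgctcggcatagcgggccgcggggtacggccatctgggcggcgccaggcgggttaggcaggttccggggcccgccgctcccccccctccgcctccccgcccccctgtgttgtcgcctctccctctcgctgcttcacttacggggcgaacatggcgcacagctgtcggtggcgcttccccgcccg
Setd7: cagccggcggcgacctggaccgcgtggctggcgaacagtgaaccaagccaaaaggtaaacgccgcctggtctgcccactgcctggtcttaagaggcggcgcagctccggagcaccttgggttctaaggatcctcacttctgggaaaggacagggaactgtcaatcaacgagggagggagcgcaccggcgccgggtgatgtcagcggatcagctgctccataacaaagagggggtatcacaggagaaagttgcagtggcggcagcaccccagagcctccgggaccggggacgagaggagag
Suz12: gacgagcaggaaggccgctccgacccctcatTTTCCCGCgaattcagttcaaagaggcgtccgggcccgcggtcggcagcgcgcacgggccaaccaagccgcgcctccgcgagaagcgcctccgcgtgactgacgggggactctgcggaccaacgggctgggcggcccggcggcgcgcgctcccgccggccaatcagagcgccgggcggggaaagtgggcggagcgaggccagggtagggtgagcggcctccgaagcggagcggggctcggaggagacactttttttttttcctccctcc
The motifs searched on both strands were E2F-like (TTTCCCGC, TTTCCCGG, TTTGGCGC or TTTGGCGG), ETS-like (CCGGAAGT), FoxO-like (GTAAACA) and the cAMP response element (TGACGTCA). Of the 11 called-lower genes with a window, 1 had a match, the E2F-like match in *Suz12*, and none had an ETS-like, FoxO-like or cAMP response match. The called-lower genes *Setd1b*, *Kdm6b*, *Kmt2e*, *Kmt2b* and *Kdm2a* had no window. Over the 43 members the E2F-like motif was found in 4 windows, against 3.397% of the windows of all 27025 genes. The ETS-like, FoxO-like and cAMP response motifs were found in 1, 1 and 2 windows of the 43, against 4.0%, 3.549% and 1.876% of all windows. Shares this low leave few matches to be found in 11 windows. The windows of the members had a median GC content of 61.3%, against 52.7% over all genes.

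The H3K4 writers were lower nearly as a whole, with 6 of 7 called. *Kmt2a*, which encodes MLL1, the writer that keeps *Hox* genes active, had the largest fall of all writers and erasers, although *Kdm6b* and *Setd1b* fell more without Rictor-null replicate 1 (both -0.55, against -0.53 for *Kmt2a*), as did *Kdm6b* with probe sets averaged (-0.49, against -0.43 for *Kmt2a*). Its intensities were 350 and 408 in Rictor-null TFH cells, against 607 and 587 in WT TFH cells. The groups lay well apart, by -0.64 on the log2 scale (standard error 0.07, adjusted p = 3.83e-05 from limma). *Setd1b*, a catalytic subunit of a SET1 COMPASS complex that makes trimethylated H3K4 at promoters, was at 187.9 and 187.6 in Rictor-null TFH cells, against 278 and 286 in WT TFH cells. Its fall was nearly as large, at -0.55 (standard error 0.06, adjusted p = 4.77e-05 from limma).

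*Kmt2d* and *Kmt2c* encode MLL4 and MLL3, which monomethylate H3K4 at enhancers. *Kmt2d* was at 460.4 and 460.8 in Rictor-null TFH cells and at 637 and 615 in WT TFH cells. *Kmt2c* was at 422 and 423 in Rictor-null TFH cells, against 535 and 514 in WT TFH cells. Both pairs lay apart, with log2 fold changes of -0.43 for *Kmt2d* and -0.30 for *Kmt2c* (adjusted p = 7.67e-05 and 0.00127 from limma). The call of *Kmt2c* was lost without WT replicate 1. *Setd7*, whose enzyme monomethylates H3K4 and many proteins that are not histones, was at 574 and 609 in Rictor-null TFH cells, against 784 and 801 in WT TFH cells. The difference was -0.41 on the log2 scale (standard error 0.05, adjusted p = 0.000105 from limma). With probe sets averaged neither *Setd7* (-0.17) nor *Kmt2d* (-0.15) was called. The smallest call was that of *Kmt2b*, the closest relative of *Kmt2a*, at 355.7 and 355.8 in Rictor-null TFH cells and 418 and 398 in WT TFH cells. Its call, at -0.19 with an adjusted p of 0.0294 from limma, was lost with any 1 of the 4 arrays left out. *Setd1a*, the paralogue of *Setd1b*, was at 132 and 121 in Rictor-null TFH cells, against 142 and 140 in WT TFH cells. It was below WT on both arrays but did not pass, at -0.14 with a 95% interval from -0.30 to 0.01.

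**Figure D2:**
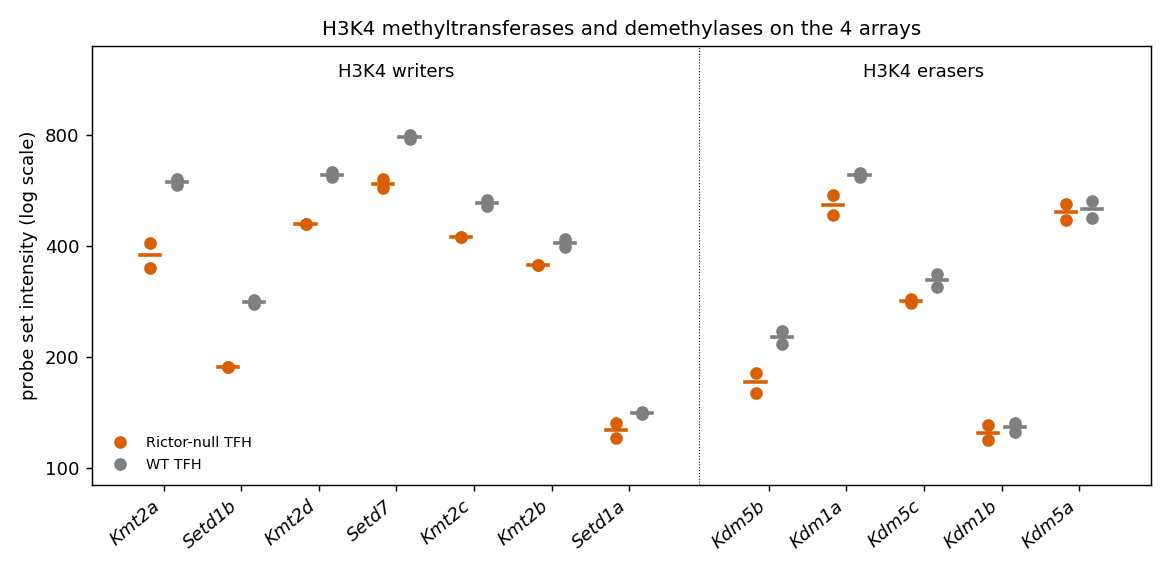
Intensity of the brightest probe set (y axis, log scale) for 7 H3K4 writers and 5 H3K4 erasers, with Rictor-null TFH cells in orange and WT TFH cells in grey. Points show single arrays, and bars show group means (n = 2). For all 7 writers both Rictor-null arrays lie below both WT arrays, while the points of *Kdm1b* and *Kdm5a* overlap.

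Most partners of the H3K4 writers in the COMPASS complexes were not called. All 13 measured partner genes lay above the median of all probe sets, where 11.3% of genes were lower and 20.1% higher. Both Rictor-null arrays lay below both WT arrays for 9 of the 13 and above them for 2, against 24.9% and 30.6% of all genes. Of the 13 genes 2 were called lower and 1 was called higher. The higher one, *Dpy30*, a core subunit, was at 890 and 800.5 in Rictor-null TFH cells, against 584 and 557 in WT TFH cells. It was called at a log2 fold change of 0.55. The core genes *Wdr5*, *Rbbp5* and *Ash2l* were at -0.05, 0.11 and 0.11, none of them called. The lower ones were *Hcfc1* at -0.20 and *Pagr1a*, of the MLL3 and MLL4 complexes, at -0.19. *Men1*, which encodes the MLL1 partner menin, was at -0.20 (adjusted p = 0.173 from limma).

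Of the 5 erasers of H3K4 methylation 2 were called, both lower. *Kdm5b*, whose enzyme removes methyl groups from trimethylated H3K4, was at 159.9 and 181 in Rictor-null TFH cells, against 236 and 217 in WT TFH cells. It fell by 0.38 on the log2 scale (standard error 0.07, adjusted p = 0.00278 from limma). *Kdm1a* encodes LSD1, an eraser of mono- and dimethylated H3K4 that works with CoREST. It was at 549 and 485 in Rictor-null TFH cells, against 634 and 615 in WT TFH cells (log2 fold change -0.27, adjusted p = 0.00774 from limma). Both were lower on each Rictor-null array, and both calls were lost with either WT array left out, that of *Kdm1a* also without Rictor-null replicate 2.

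The paralogues of *Kdm5b* did not pass with their brightest probe sets. *Kdm5c* was at 287 and 281 in Rictor-null TFH cells, against 336 and 309 in WT TFH cells, a log2 fold change of -0.18 (adjusted p = 0.0647 from limma). It was called lower under median centring, quantile normalization and removal of dim genes (adjusted p = 0.0436, 0.0403 and 0.0407 from limma). All 9 of its probe sets lay below 0, and 1 dimmer probe set was called lower at -0.29 (63.4 and 61.0 in Rictor-null and 80.8 and 78.2 in WT TFH cells, adjusted p = 0.0392 over all probe sets from limma). *Kdm5a* was at 470.0 and 521 in Rictor-null TFH cells, against 531 and 477 in WT TFH cells, and the arrays overlapped. *Kdm5c* and *Kdm6a* lie on the X chromosome and escape its inactivation, so that the sexes in a pool bear on their level. *Xist*, transcribed from the inactive X, was at 4940 and 5027 in Rictor-null TFH cells and at 5943 and 5802 in WT TFH cells. It was called lower, at a log2 fold change of -0.24 (adjusted p = 0.000619 from limma). The Y-linked gene *Eif2s3y* lay between 4.65 and 6.82 and *Uty* between 4.88 and 6.72 on the 4 arrays, so that both were dim in Rictor-null and in WT TFH cells alike.

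In PRC2 the core gene *Suz12* was called, and the catalytic genes were not. *Suz12*, a core subunit that holds the complex together, was at 739 and 815 in Rictor-null TFH cells, against 986 and 908 in WT TFH cells. Both arrays lay below WT, by -0.28 on the log2 scale (standard error 0.06, adjusted p = 0.00448 from limma) that was not called with either WT array left out. *Ezh2*, the main catalytic subunit of dividing cells, was at 918 and 895 in Rictor-null TFH cells, against 962 and 1043 in WT TFH cells. It lay below WT on both arrays, at -0.14 with a 95% interval from -0.25 to -0.03 before adjustment. It did not pass, with an adjusted p of 0.0733 from limma. It was called lower under median centring, quantile normalization and removal of dim genes (adjusted p = 0.0469, 0.0468 and 0.0418 from limma). *Ezh1*, its paralogue in resting cells, was at 279 and 254 in Rictor-null TFH cells, against 266 and 283 in WT TFH cells. *Eed*, the subunit that binds trimethylated H3K27, was at 634 and 638 in Rictor-null TFH cells, against 589 and 612 in WT TFH cells. Neither *Ezh1* (-0.04) nor *Eed* (0.08) passed. Of 7 accessory PRC2 genes 2 were lower, *Aebp2* at -0.37 and *Jarid2* at -0.27, and none was higher. All 7 lay above the median of all probe sets, where 11.3% of genes were lower and 20.1% higher.

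Of the 2 KDM6 erasers of H3K27 methylation 1 was called. *Kdm6b* encodes JMJD3, an eraser known to be induced by inflammatory and antigen receptor signals, and it had the largest fall among erasers. It was at 255 and 242 in Rictor-null TFH cells, against 372 and 354 in WT TFH cells, with the arrays well apart. Its log2 fold change was -0.52 (standard error 0.06, adjusted p = 6.37e-05 from limma). *Kdm6a*, which encodes UTX, was at 414 and 412 in Rictor-null TFH cells, against 431 and 411 in WT TFH cells. These arrays overlapped, and the log2 fold change was -0.03 with a 95% interval from -0.15 to 0.09. A dimmer probe set of *Kdm6a* was at 251 and 255 in Rictor-null TFH cells, against 278 and 302 in WT TFH cells (-0.18). Another was at 161 and 186, against 201 and 188 (-0.16). Neither was called over all probe sets (adjusted p = 0.116 and 0.295 from limma), and the dimmest lay at 0.07. *Kdm7a*, an eraser of H3K9 and H3K27 dimethylation, was at -0.07 and did not pass.

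Of 5 H3K9 writers only *Ehmt2* was called, although not with either WT array left out or with its probe sets averaged (-0.14). It encodes G9a, the main writer of mono- and dimethylated H3K9 outside heterochromatin, and was at 410 and 376 in Rictor-null TFH cells, against 496.3 and 495.7 in WT TFH cells (log2 fold change -0.32, adjusted p = 0.0014 from limma). *Ehmt1*, whose product GLP forms a dimer with G9a, was at 551 and 566 in Rictor-null TFH cells, against 587 and 526 in WT TFH cells, a log2 fold change of 0.0076 with a 95% interval from -0.12 to 0.14. *Setdb1*, *Setdb2* and *Suv39h2* were at -0.06, 0.15 and -0.0097, none called. *Suv39h2* was dim, at 14.2 to 14.7 on the 4 arrays. None of the 6 H3K9 erasers of the KDM3 and KDM4 families was called, with log2 fold changes from -0.08 to 0.07. *Kdm8*, a JmjC gene whose substrate is disputed, was at 0.10 and did not pass.

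For H3K36 none of the 4 writers was called and both KDM2 erasers were lower, and some of these calls moved with the setting. No other eraser family was counted for H3K36, and the KDM4 genes, none of them called, were counted with H3K9 alone. *Setd2*, whose enzyme makes trimethylated H3K36, was at 177 and 168 in Rictor-null TFH cells, against 199 and 198 in WT TFH cells (log2 fold change -0.18, adjusted p = 0.0662 from limma). *Nsd2* and *Nsd1*, of the dimethylating NSD enzymes, were at -0.23 and -0.16 (adjusted p = 0.0674 and 0.0838 from limma), and *Nsd3* was at 0.08. *Setd2* was called lower under 5 alternatives, among them median centring and quantile normalization, and *Nsd2* under 3. *Kdm2b*, an H3K36 eraser that also brings a Polycomb complex to CpG islands, was at 390 and 396 in Rictor-null TFH cells, against 500.2 and 499.7 in WT TFH cells. Its log2 fold change was -0.34 (standard error 0.05, adjusted p = 0.000549 from limma), and *Kdm2a*, its paralogue, was at -0.27 (adjusted p = 0.0129 from limma). The arrays of the groups did not overlap for either, and *Kdm2a* was not called with Rictor-null replicate 1 or either WT array left out.

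*Kmt2e*, *Setd5* and *Setd3* were also lower, and they carry SET domains that are not known as H3K4 writers. *Kmt2e* encodes MLL5, a reader of trimethylated H3K4 with no clear enzyme activity, and it was the brightest of the 55 genes. It was at 1011 and 1030 in Rictor-null TFH cells, against 1339 and 1324 in WT TFH cells (log2 fold change -0.38, adjusted p = 7.06e-05 from limma). *Setd5*, whose product works with co-repressors, was at -0.29, and *Setd3*, whose enzyme methylates a histidine of actin, at -0.26. The call of *Setd3* was lost with either WT array left out, and that of *Setd5* without WT replicate 2. *Setd4* and *Setd6* were at -0.09 and 0.09 and did not pass. The H3K79 writer *Dot1l*, at 95.1 and 93.2 in Rictor-null and 109 and 111 in WT TFH cells, did not pass either (log2 fold change -0.19, adjusted p = 0.0997 from limma). The H4K20 writers *Kmt5a*, *Kmt5b* and *Kmt5c* were at -0.12, 0.04 and -0.14, none called.

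The arginine writers held the only member that rose. *Prmt7*, whose enzyme makes monomethylated arginine, was at 98.4 and 90.4 in Rictor-null TFH cells, against 75.1 and 66.2 in WT TFH cells. Its log2 fold change was 0.35 (standard error 0.09, adjusted p = 0.0113 from limma), a call lost with either WT array, or with Rictor-null replicate 1, left out. *Prmt5*, the main writer of symmetric dimethylarginine, was at 151 and 167 in Rictor-null TFH cells, against 139 and 130 in WT TFH cells (log2 fold change 0.21, adjusted p = 0.0646 from limma). *Prmt1*, the main writer of asymmetric dimethylarginine, was at 503 and 434 in Rictor-null TFH cells, against 450 and 445 in WT TFH cells, and the arrays overlapped. *Prmt2* just missed the threshold, at -0.27 (adjusted p = 0.0504 from limma). The other 5 arginine writers ran from -0.20 for *Carm1* to 0.12 for *Prmt9*, none called.

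**Figure D3:**
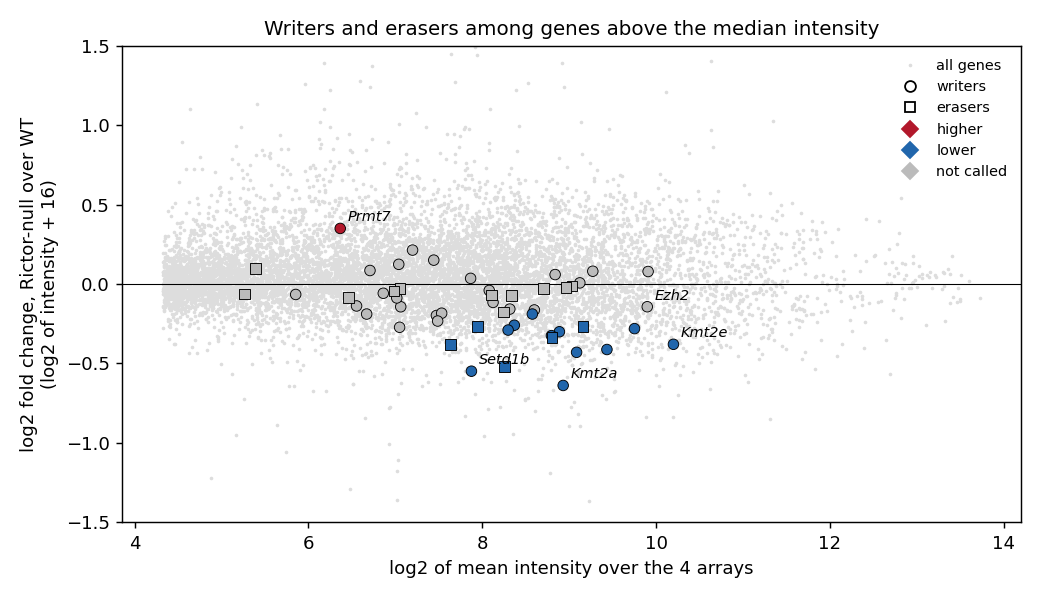
Log2 fold change (y axis, log2 of intensity + 16) against the log2 of the mean intensity over the 4 arrays (x axis) for 10714 genes above the median of all probe sets (grey), of which 7 lie beyond the drawn range. Circles are writers and squares erasers, blue or red where called lower or higher and grey with a black edge otherwise. The called members lie below 0 except *Prmt7*.

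Probe sets that the rule left out gave a second reading of the same genes on the same arrays. Of the 16 lower genes 15 had such probe sets, 34 in all, of which 26 were below 0 and 9 were called lower with adjustment over all 45037 probe sets. None of the 34 was called higher. Of all 45037 probe sets 11% were called in either direction. The members not called had 63 other probe sets, of which 41 were below 0, 3 were called lower and none was called higher. All 3 probe sets of *Kdm6b* were called lower, at -0.63 to -0.31. The 4 of *Kmt2c* lay at -0.39 to -0.16 and the 6 of *Suz12* at -0.31 to -0.17. For *Kmt2d*, *Setd7* and *Ehmt2* the only other probe set was dim, at a mean of 28.0, 10.1 and 26.8, and lay at 0.14, 0.07 and 0.04. For *Kmt2a* the second probe set was almost as bright as the first and lay at -0.22 (392 and 444 in Rictor-null and 520 and 456 in WT TFH cells). Its arrays did not overlap, but it did not pass (adjusted p = 0.124 over all probe sets from limma). For *Kdm1a* and *Setd3* the only other probe set was bright too, at a mean of 213 and 298. These lay at -0.07 and -0.11 with overlapping arrays, and neither was called. When all probe sets of a gene were averaged, 10 genes were lower and none was higher, where 4.63% of all genes were lower and 9.88% higher. Of the 17 calls 9 were kept. Those of *Kmt2d*, *Setd7*, *Suz12*, *Ehmt2*, *Kdm1a*, *Kdm2a*, *Setd5* and *Prmt7* were lost.

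**Figure D4:**
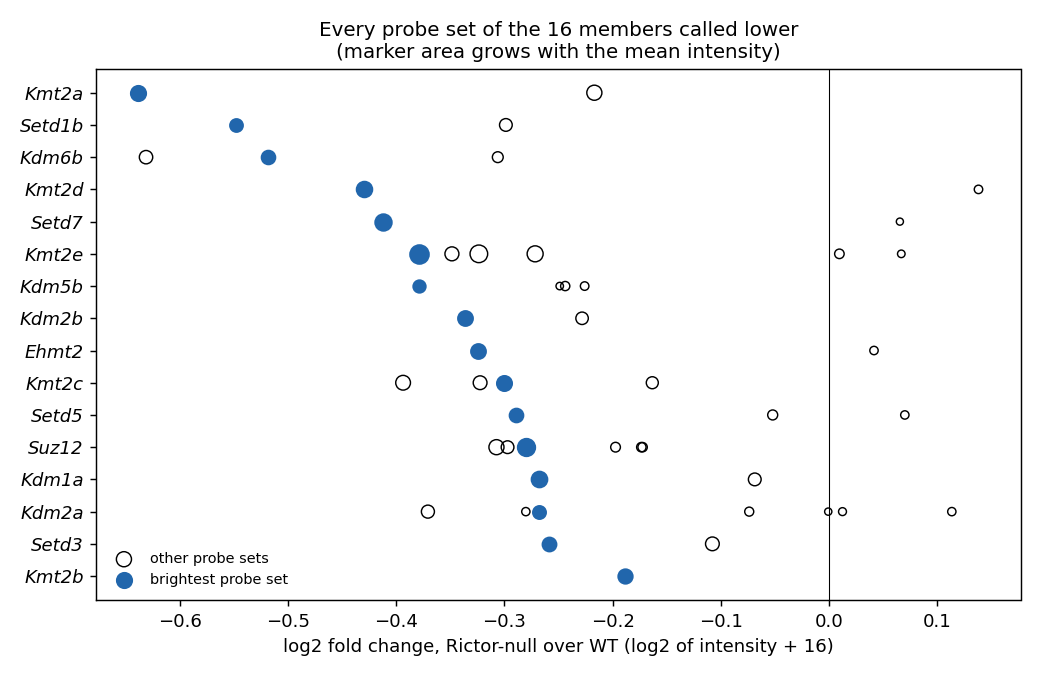
Log2 fold change (x axis, log2 of intensity + 16) of every probe set of the 16 members called lower, 1 row a gene. Filled points are the brightest probe set of a gene, open points its other probe sets, and the area grows with the mean intensity. The 8 open points right of 0 have mean intensities of 10.1 to 52.6.

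Writers and erasers are bright and long genes, and the share of lower genes grew with length over all bright genes. The 55 genes had a median brightness percentile of 80.7 and a median length of 43.1 kb in GRCm38.p6, against 20.2 kb over all genes. Among genes above the median of all probe sets, 7.41% of those under 20 kb were lower, 11.35% of those of 20 to 40 kb, 15.17% of those of 40 to 80 kb and 19.87% of those of 80 kb or more. In the same 4 length classes 1 of 7, 3 of 12, 9 of 22 and 3 of 11 members were lower. The part of gene length in the result was not tested further.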

How the data were processed

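TFH cells from Rictor-null and WT spleens (2 pooled samples each) were measured on 1-colour Affymetrix mouse arrays. The authors deposited intensity values of 45037 probe sets on a linear scale. MAS5 and RMA appear in the submitters' processing notes, with neither role nor version. Probe sets were named from the platform annotation. Of them 34945 had 1 symbol, 932 had several and 9160 had none there, and those with several or none were not used. Updating symbols through Entrez numbers in a GRCm38.p6 RefSeq table, found for 34741 probe sets, changed 0.

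Intensities became log2(intensity + 16), which understates changes of dim genes, and a gene was read by its brightest probe set. The test was that of limma 3.58.1 (lmFit, then eBayes with a trend; R 4.3.3) over 18193 genes with Benjamini-Hochberg adjustment. It was tested on simulated data. The number of arrays limits the precision.

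Members and lists were chosen with earlier results of these data known. Values per array are given for the 8 largest rises (1 was called) and 8 largest falls among called members, PRC2, KDM5 and KDM6 genes, and further members were named after their values were seen. Alternatives were scaling, dim genes, other probe sets, no trend, a pseudocount of 1, a replicate block, each array left out and the methods' t-test.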

Additional observations from a re-analysis of the deposited data

How the results depend on the processing

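The count of genes lower in Rictor-null TFH cells, 16, stayed between 15 and 22 under median centring, quantile normalization, removal of dim genes, no trend, a pseudocount of 1 and testing of all probe sets together, and the count higher, 1, stayed at 1 except for 2 without dim genes. The share of all genes called lower ran from 5.42% with all probe sets tested together (15 members) to 13.9% without dim genes (22 members of 52). With a gene's probe sets averaged the counts were 10 lower and 0 higher (4.63% and 9.88% of all genes). With an array left out they ran from 8 to 16 lower and from 0 to 1 higher, and the fits without a WT array gave the low ends (2.51% and 2.72% of all genes lower). The arm with 1 array is then assumed to vary like the other. The methods' t-test called 0 in either direction after adjustment and, chosen after seeing the data, 24 lower and 2 higher at an unadjusted p under 0.05. Of all genes 12.3% were lower and 17.3% higher at that unadjusted threshold. This t-test was 1-tailed, in the direction in which each gene moved. Nothing says that replicate numbers pair the samples (the deviations of replicates numbered 1 correlated at -0.10), and a fit with the replicate block gave 17 lower and 1 higher. No called gene changed direction under any of these, but most of them could not have shown it. Removal of dim genes, joint testing of probe sets, no trend, the block and the t-test leave the fold change as it was. The arrays of the groups did not overlap for any called gene, so that leaving 1 out or changing the pseudocount cannot turn its sign. Only the scalings and the averaging of probe sets could have done so. Among uncalled genes, 9 (*Prmt2*, *Setd2*, *Ezh2*, *Kdm5c*, *Nsd2*, *Prmt3*, *Prmt5*, *Carm1* and *Dot1l*) were called under at least 1 limma alternative. Of the uncalled genes 16 crossed 0 under some alternative, none beyond a size of 0.115. Among the PRC2, KDM5 and KDM6 genes, *Ezh1* turned to 0.0054 with probe sets averaged, 0.0239 without Rictor-null replicate 2 and 0.0032 without WT replicate 2, *Kdm5a* to 0.05 (0.0499 without Rictor-null replicate 1 and 0.0528 without WT replicate 1) and *Kdm6a* to 0.0046 without WT replicate 1 (-0.0593 without WT replicate 2). The cause of these shifts was not tested. Signals below the median of all probe sets limit what can be seen of *Kdm4d*, *Suv39h2* and *Prmt8*.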

Other observations

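Beside *Kdm5c*, *Setd4* and *Kdm7a* were not called by their brightest probe set, but each had a dimmer one that was called lower over all probe sets. That of *Setd4* was at 47.5 and 46.2 in Rictor-null TFH cells, against 74.1 and 82.5 in WT TFH cells, a log2 fold change of -0.58. That of *Kdm7a* was at 196 and 204 in Rictor-null TFH cells, against 287 and 243 in WT TFH cells, a log2 fold change of -0.38. The sources used here do not say which transcripts these probe sets read.

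Among related genes outside the families, *Riox2*, a JmjC gene linked to ribosome formation, was at 593 and 696 in Rictor-null TFH cells, against 473 and 475 in WT TFH cells (log2 fold change 0.43). Of 9 other JmjC genes it was the only one higher, and *Phf2* (-0.25) and *Jmjd1c* (-0.22) were lower. Of 8 other SET domain genes *Smyd2* was higher at 0.28 and *Prdm2* lower at -0.28, and none of 3 HP1 reader genes was called. *Nsdhl*, a sterol synthesis gene on the X chromosome, was at 0.18 (adjusted p = 0.0841 from limma). *Ezhip*, which encodes an inhibitor of PRC2, was called lower at -0.15 but lay at 8.40 to 12.3 on the arrays, below the median of all probe sets.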
